A study of Mus musculus with 14 samples.

Results

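The genes described here were 42 nuclear receptor genes of the mouse, taken as a named list from GENCODE M21 (build mm10) and compared with the 21755 protein-coding genes on chromosomes 1 to 19 and X, which include them. They were read against 160144 sites of H3K4me1, the mono-methylation of lysine 4 of histone H3, that were called by chromatin immunoprecipitation and sequencing (ChIP-seq). By subfamily, 16 genes belonged to NR1, 12 to NR2, 7 to NR3, 3 to NR4, 2 to NR5, 1 to NR6 and 1 to NR0. From textbook knowledge of where each receptor is used, 13 were classed as broadly used, 15 as tissue-restricted and 14 as intermediate. This was done with earlier results of these data known.

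All libraries came from NG3, a single clone of immortalised mouse embryo fibroblasts (iMEF), in which the endogenous Ash2l gene had been inactivated by Cre-mediated deletion and human ASH2L, fused to the FKBP12F36V degron and HA tags, was expressed from a lentivirus. ASH2L is a core subunit of the KMT2 (MLL) histone methyltransferase complexes, and the ligand dTAG-13 directs the fusion protein to the proteasome. Control cells carried the same deletion and fusion and received no dTAG-13, and treated cells received it for 0.5, 2, 4, 8 or 16 h, with 2 H3K4me1 libraries for each of these 6 conditions and 1 input library each for control and 16 h. The deposited table used here pools the 12 H3K4me1 libraries into 1 list of positions without a value per library. From it no difference between time points could be computed, no replicate error exists for any value given here, and no test was run. The study itself reported sites with changed H3K4me1 at each time point, which were not used here.

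Nuclear receptors are transcription factors, most of which bind DNA through 2 zinc fingers. Many are switched by small lipophilic ligands such as steroid hormones, thyroid hormone, retinoic acid, vitamin D, fatty acids, oxysterols and bile acids. Receptors of the NR1 group often bind as heterodimers with a retinoid X receptor on direct repeats of a hexamer close to AGGTCA, and the number of bases between the repeats helps to set which receptor binds. H3K4me1 marks enhancers and the flanks of active promoters, whereas the nucleosomes at the start of strongly used promoters carry H3K4me3 instead.

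The retinoic acid receptor genes are themselves classical retinoic acid targets, so the stretches of DNA below show the direct repeats with 5 bases between the hexamers (DR5) that lie within 1 kb of a transcription start site (TSS) of each of them. Each is written 5′ to 3′ on the coding strand of its gene, with the repeat in capitals and 6 bases on either side in lower case, from the RefSeq GRCm38.p6 (mm10) sequence.
Rara DR5: caggcgAGTTCAGCAAGAGTTCAgccgaa
Rarb DR5: gggaagGGTTCACCGAAAGTTCActcgca
Rarg DR5: ggtcagGGTTCAAAGTGAGGTCAcggtat
The Rara repeat occupies chr11:98960008-98960024 on the plus strand, 388 to 404 bp upstream of the TSS at position 98960412, the most downstream one of the gene. It lay in an intron, under a site of 12854 bp. The Rarg repeat occupies chr15:102250817-102250833 on the minus strand, 471 to 487 bp upstream of the TSS at 102250346, also outside exons, under a site of 10366 bp. The Rarb repeat differed from both. It occupies chr14:16575513-16575529 on the minus strand, 14 to 30 bp downstream of the TSS at 16575543 and inside an annotated exon, and its first base is at position -53 of a RefSeq start. No site covered it. It sat in a gap of 264 bp between a site of 348 bp, which ended 19 bp away, and a site of 334 bp, which began 228 bp away. The search took the 4 hexamers of the textbook consensus on both strands, namely AGGTCA, the form AGTTCA found on both sides of the Rara repeat, the form GGTTCA that opens the Rarb and Rarg repeats, and GGGTCA as a further form. With it, 6 of the 42 members (14.3%) had a DR5 within 1 kb of at least 1 TSS, against 1.52% of the protein-coding genes. Since retinoic acid elements of this kind are among the known elements behind that consensus, the 3 retinoic acid receptor genes are no independent support for this difference. Without them, 3 of 39 members (7.69%) had one, namely Esrra, Nr3c1 and Rxrb. The members have more annotated TSSs to search, with a median of 6 against 3. Such a match describes the letters only and is not a binding measurement.

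The second set of sequences shows 3 kinds of promoter found among the members, each as the 200 bases before the most upstream TSS, on the coding strand, with CpG dinucleotides in capitals.
Nr4a1 promoter: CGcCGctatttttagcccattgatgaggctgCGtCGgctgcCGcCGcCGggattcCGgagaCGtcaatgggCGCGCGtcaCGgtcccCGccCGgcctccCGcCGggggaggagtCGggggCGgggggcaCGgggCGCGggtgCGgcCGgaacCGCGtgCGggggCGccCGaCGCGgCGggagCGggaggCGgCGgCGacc
Hnf4g promoter: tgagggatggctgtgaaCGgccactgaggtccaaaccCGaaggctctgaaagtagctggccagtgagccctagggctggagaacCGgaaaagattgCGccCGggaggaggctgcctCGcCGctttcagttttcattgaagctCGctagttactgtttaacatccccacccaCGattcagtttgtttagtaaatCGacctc
Hnf4a promoter: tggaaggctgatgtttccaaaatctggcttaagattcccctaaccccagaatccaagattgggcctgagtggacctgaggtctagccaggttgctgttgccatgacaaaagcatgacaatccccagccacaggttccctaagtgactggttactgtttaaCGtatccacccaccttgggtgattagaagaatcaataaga
The Nr4a1 stretch, chr15:101254069-101254268 on the plus strand, holds 36 CpGs at a GC content of 79.0%, lies at a CpG island and was wholly under a site. Nr4a1 encodes a receptor without a known need for a ligand that is induced within minutes in many cell types. The Hnf4g stretch, chr3:3507830-3508029 on the plus strand, holds 10 CpGs at 54.0% GC, falls outside any island by the rule used, and was also wholly under a site. The Hnf4a stretch, chr2:163506608-163506807 on the plus strand, holds 1 CpG at 47.5% GC and had no site. The HNF4 receptors are best known from liver, gut and kidney. Over the 33 members with a site within 1 kb of that TSS the same 200 bases held a median of 11 CpGs, from 0 to 37, and over the 9 members without one a median of 3, from 0 to 10, so the ranges overlapped.

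The list of sites had a median width of 603 bp, from 200 to 50106 bp, and 1500 sites (0.937%) were 5 kb or wider. As a check of the labelled cell type, 11 of 13 fibroblast genes (84.6%) had a site within 1 kb of the most upstream TSS, and the same number within 1 kb of any TSS, among them Col1a1, Thy1, Pdgfra and Prrx1, while Col3a1 and Lum had none. Of 14 genes that mark other cell types, 4 (28.6%) had one at the most upstream TSS (Epcam, Cdh1, Pecam1 and Neurod1) and 7 (50.0%) at any TSS. Over all protein-coding genes these shares were 64.4% and 68.4%.

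A site lay within 1 kb of the most upstream TSS, here called the promoter, in 33 of the 42 receptor genes (78.6%), against 64.4% of the protein-coding genes. Counting any annotated TSS, 36 members (85.7%) had one, against 68.4%. The TSS itself lay under a site in 27 members (64.3%), against 39.8%. None of the 42 lacked a site over both the gene and the 50 kb on either side, whereas 12.5% of the protein-coding genes did. The members had a median of 6 annotated TSSs against 3, and a median length of 52698 bp against 17414 bp. No share at an equal number of TSSs or equal length was computed. The pooled list includes dTAG-13-treated cells, in which the study found nearly all H3K4me1 gains at promoters. Which of the promoter sites were present in control cells cannot be read from the list. The members without a promoter site were Vdr, Hnf4a, Rxrg, Nr2e1, Nr2e3, Nr3c1, Nr5a1, Nr5a2 and Nr0b2, and 6 of these (Hnf4a, Rxrg, Nr2e1, Nr2e3, Nr5a1 and Nr0b2) had no site at any TSS. All of those 6 belong to the tissue-restricted class. By subfamily, a promoter site was found in 15 of 16 NR1 genes, 8 of 12 NR2 genes, 6 of 7 NR3 genes, all 3 NR4 genes, neither NR5 gene, the NR6 gene and not the NR0 gene.

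**Figure D1:**
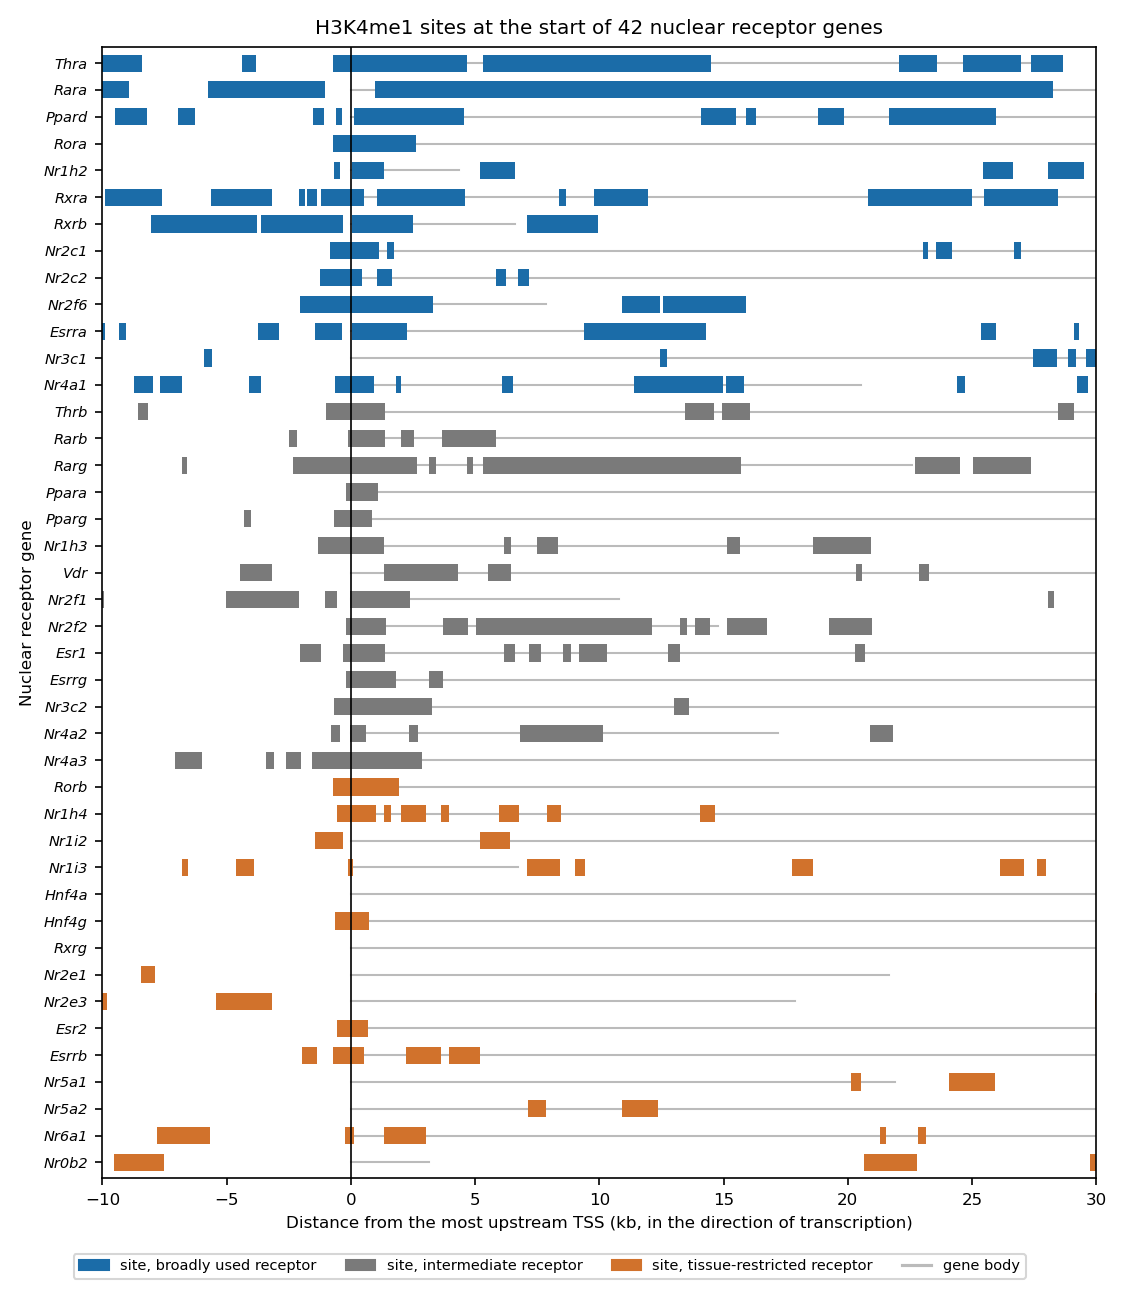
Positions of H3K4me1 sites from 10 kb before to 30 kb after the most upstream TSS of the 42 receptor genes, 1 row a gene, with sites as bars coloured by class and the gene body as a grey line. Most rows carry a bar at or beside 0, Rara carries 1 bar over nearly the whole body shown, and the 9 rows without a bar within 1 kb of 0 include 7 tissue-restricted receptors.

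The classes differed at the promoter. Among broadly used receptors 12 of 13 (92.3%) had a promoter site, as did 13 of 14 intermediate ones (92.9%), whereas 8 of 15 tissue-restricted ones (53.3%) did, which is 39.0 percentage points fewer than the broadly used ones. These are counts of short, fixed lists and carry no test. The classes were set with earlier results of these data known, so this difference is no independent support for a link with tissue use. CpG islands, stretches rich in CpG that many widely used promoters carry, were unequally shared between the classes. An island overlapped the promoter of 11 broadly used, 10 intermediate and 2 tissue-restricted receptors. With an island, 22 of 23 members (95.7%) had a promoter site, against 92.9% of the protein-coding genes with an island. Without one, 11 of 19 (57.9%) did, against 30.2% of the protein-coding genes without an island. Among the receptors without an island, 7 of the 13 tissue-restricted ones (53.8%) had a site, as did 1 of the 2 broadly used ones and 3 of the 4 intermediate ones. Islands were looked for at the most upstream TSS only. Both broadly used ones, Rara and Nr3c1, had an island within 1 kb of other TSSs, and the site counted for Rara covered 45 bp. The 4 intermediate ones, Rarb, Vdr, Nr2f2 and Esr1, also had one at another TSS, as did Esrrb, Nr5a1, Nr5a2 and Nr6a1 of the tissue-restricted class. How much of the class difference goes with the islands was not tested. The 1 receptor with an island and no site was Nr2e1, known as Tlx in neural stem cells, whose nearest site ended 7869 bp upstream and whose start lies within 1 kb of that of Ostm1 on the other strand.

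**Figure D2:**
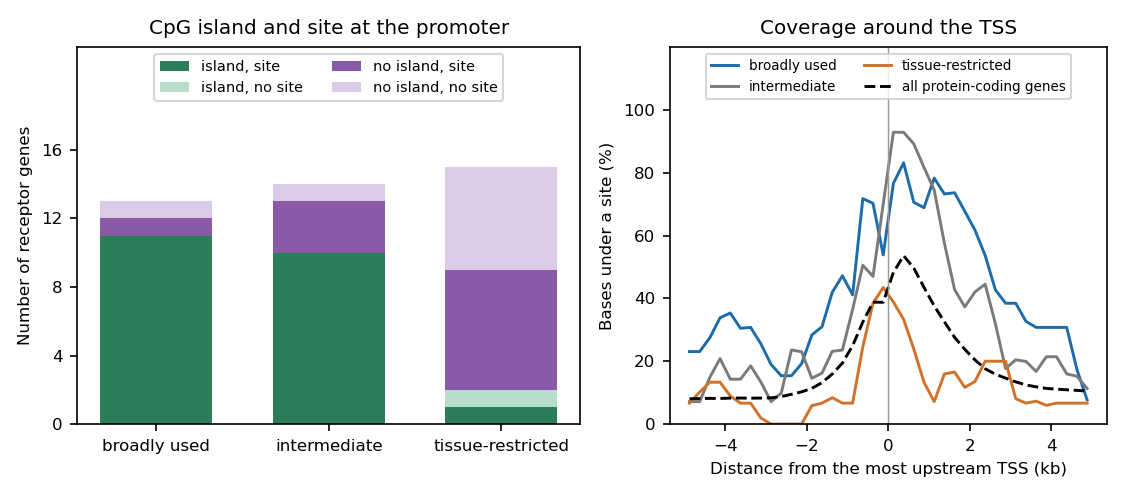
Left, number of receptor genes of each class with and without a CpG island and an H3K4me1 site within 1 kb of the most upstream TSS. Right, percentage of bases under a site in bins of 250 bp from 5 kb before to 5 kb after that TSS, for each class and for all protein-coding genes (dashed). Islands with a site make up 11 of 13 broadly used and 1 of 15 tissue-restricted receptors, and the broadly used class dips at the TSS.

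Tissue-restricted receptors also had the least sequence under sites around the TSS. In the first 1 kb after the TSS, sites covered 74.8% of the bases in broadly used, 89.1% in intermediate and 27.4% in tissue-restricted receptors, against 48.7% over the protein-coding genes. From 1 to 5 kb after it, the figures were 44.3%, 30.7% and 11.2%, against 17.7%. The broadly used and intermediate receptors thus changed places with distance. The TSS lay under a site in 7 of 13 broadly used receptors (53.8%) but in 13 of 14 intermediate ones (92.9%). In 4 of the broadly used receptors, Ppard, Nr1h2, Rxrb and Esrra, the TSS lay in a gap with a site within 1 kb on both sides, an arrangement found in 13.8% of the protein-coding genes. The gaps spanned 489 bp at Ppard, 477 bp at Nr1h2, 364 bp at Rxrb and 397 bp at Esrra, close to the median of 423 bp over all such genes. No intermediate or tissue-restricted receptor had this arrangement at its most upstream TSS. At other TSSs it did occur, as at position 16575543 of Rarb and position 38785111 of Nr6a1.

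The widest sites lay over Rara, Rarg and Thra, which encode retinoic acid and thyroid hormone receptors. Rara, which encodes retinoic acid receptor alpha and occupies chr11:98927818-98974942, had 85.6% of its 47125 bp under 3 sites, which placed it at the 98.3th percentile of the protein-coding genes. One of them, chr11:98928774-98956061, was 27288 bp wide, the 4th widest of all 160144 sites and 45.3 times the median width. It began 956 bp after the most upstream TSS, covered only 45 bp of that promoter, and ran over 5 of the 7 annotated TSSs. After a gap of 1732 bp came a site of 200 bp, the smallest width in the list, and after a further 801 bp the site of 12854 bp that holds the DR5 shown above and the last TSS. The most upstream TSS of Rara was therefore the only one not under a site.

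Rarg, for retinoic acid receptor gamma, had 59.9% of its 22580 bp under 4 sites. Its widest, chr15:102241827-102252192, was 10366 bp, ranked 146th and held 4 of the 7 TSSs, and a site of 5004 bp lay over the most upstream TSS. Rarb, for retinoic acid receptor beta, was built differently. It had 49 sites over 388318 bp, 2 of them also on the overlapping gene Top2b. None was wider than 2900 bp, and 10.1% of Rarb was covered. All 7 of its TSSs had a site within 1 kb and 5 lay under one. The 3 retinoic acid receptor genes thus shared sites at every annotated TSS while the covered share ranged from 10.1% to 85.6%.

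Thra, for thyroid hormone receptor alpha, had 66.1% of its 28369 bp under 5 sites, and all 8 TSSs lay under a site. The first site, of 5384 bp, held 7 of the TSSs, and 617 bp further on a site of 9204 bp, chr11:98745934-98755137, held the eighth. The end of Thra overlaps the antisense gene Nr1d1, which encodes the circadian receptor REV-ERB alpha, and 1 of the 5 sites lay on both genes and cannot be assigned to either. Thrb, for thyroid hormone receptor beta, had 39 sites over 377830 bp, 6.11% of the gene and none wider than 2365 bp. Thra and Rara lie 158811 bp apart on chromosome 11 with 24 sites between them, and Thrb and Rarb lie 841104 bp apart on chromosome 14 with 51 sites between them. In both pairs of paralogs the alpha gene was short and mostly covered, and the beta gene long and covered to about the median of the protein-coding genes, which was 6.61%, or somewhat above it.

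**Figure D3:**
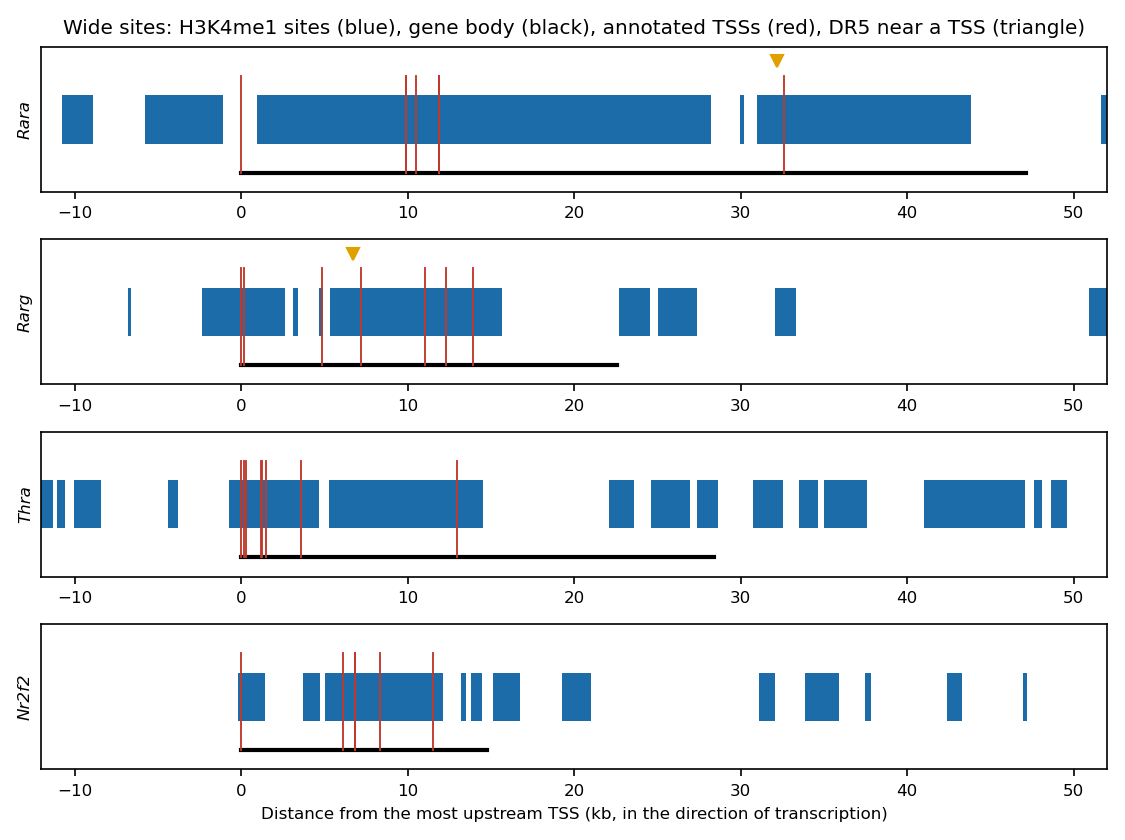
Sites (blue), gene body (black), annotated TSSs (red lines) and DR5 matches within 1 kb of a TSS of Rara and Rarg (triangles) for the 4 receptor genes with the widest sites, by distance from the most upstream TSS in kb. The 27288 bp site of Rara starts after the first TSS and spans the next 5, and both triangles fall within a wide site.

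The receptors for fatty acids, sterols and related ligands had fewer or narrower sites. Ppard, the widely used fatty acid receptor PPAR delta, had 10 sites, 20.6% of the gene and a widest site of 4447 bp. Pparg, the main regulator of fat cell formation, had 10 sites over a longer gene, 3.80% of it. Ppara, known from fatty acid oxidation in liver, had a single site of 1286 bp over its TSS and 1.63% of the gene covered. Nr1h2 and Nr1h3 encode the oxysterol receptors LXR beta and LXR alpha. The former, only 4336 bp long, had 1 site over 29.8% of the gene, and the latter had 5 sites over 16.9%, of which the first also lay on Acp2, a gene that starts within 1 kb on the other strand, and the last on Madd. Nr1h4, which encodes the bile acid receptor FXR, had 12 sites and 9.08% of the gene covered, the highest share in the tissue-restricted class.

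Rora, for the receptor ROR alpha with roles in the clock and the cerebellum, had 95 sites, the most of any member, over the longest member gene of 734461 bp, and 12.1% of it was covered. Its paralog Rorb, used mainly in retina and brain, had 9 sites, 3.76% of the gene, with a site at 1 of 4 TSSs. Vdr, which encodes the vitamin D receptor, had no site at its most upstream TSS but a site of 2974 bp beginning 1335 bp after it, so that 2 of its 5 TSSs had a site. Nr1i2 and Nr1i3 encode the xenobiotic receptors PXR and CAR. Nr1i2 had 3 sites and 7.36% of the gene covered, with the nearest site ending 315 bp before its TSS. Nr1i3 had 1 site of 206 bp at its start, 1.13% of the gene, in a neighbourhood with 21 further sites within 50 kb, 13 of them on other genes.

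The retinoid X receptors, the shared partners of many NR1 receptors, covered the whole range. Rxra, the widely used form, had 17 sites, 42.5% of its 86518 bp, and its widest site, of 5590 bp, lay at 55143 to 60732 bp after the TSS and over none of its 6 TSSs. Rxrb had 1 site of 2434 bp over 36.9% of a gene of 6588 bp. Its promoter was shared with the divergent gene Slc39a7, on which the other promoter site, of 3310 bp before the TSS, also lay. Rxrg, used mainly in muscle and brain, had no site. Its nearest one began 62079 bp after the TSS, and the site-free stretch around its TSS spanned 234332 bp.

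The other NR2 receptors have no well established hormone. Nr2f2 (COUP-TFII), a regulator of mesenchymal and venous identity, had 70.3% of its 14792 bp under 5 sites, with 1 site of 7066 bp over 5 of its 6 TSSs. Nr2f6 had 1 site of 5348 bp reaching from position -2035 to position 3312 of its TSS, 42.3% of the gene, which also lay on the overlapping gene Ocel1. Nr2f1 (COUP-TFI) had 1 site over 22.2% of the gene. Of the testicular receptor genes, Nr2c1 had 5 sites and 5.21% and Nr2c2 had 6 sites and 3.52%. Nr2c2 had a site at 2 of 8 TSSs. The tissue-restricted members of the subfamily were mostly bare. Hnf4a had no site over 66103 bp, the nearest ending 12099 bp before the TSS, and Nr2e3, a receptor of photoreceptor cells, had none, the nearest ending 3178 bp before it. Hnf4g was the exception with its 1 site of 1359 bp over the TSS shown above, yet it had no site in either 50 kb flank.

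Among the steroid and related receptors, Nr3c1, the glucocorticoid receptor gene, had no site at its most upstream TSS, from which the nearest site was 5600 bp away, but 8 of its 9 TSSs had one. The TSSs with sites lay 28120 to 32189 bp further down. With 16 sites, 8.23% of Nr3c1 was covered. Nr3c2, the mineralocorticoid receptor gene, had 23 sites, the widest of 3943 bp over its start, and 4.12% covered. Esr1, for oestrogen receptor alpha, had 32 sites and 4.69%, and Esr2, for the beta form, had 2 sites and 1.98%. Of the oestrogen-related receptors, which bind no oestrogen, Esrra had 2 sites and 33.6% of a gene of 10837 bp, Esrrg had 49 sites and 5.46% of 606095 bp, and Esrrb, a pluripotency factor, had 7 sites and 4.07%. The wider site of Esrra, of 4908 bp, also lay on Prdx5 and Trmt112 at its 3′ end.

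The 3 NR4A genes, immediate early genes in many tissues, each had an island, a site over the TSS and 3 to 5 sites. Sites covered 28.7% of Nr4a1, 25.1% of Nr4a2 and 9.88% of Nr4a3, whose first site was 4437 bp wide. Both NR5 genes, regulators of steroid synthesis and of bile acid synthesis, lacked a promoter site. Nr5a1 (SF-1) had 1 site of 402 bp in an exon near its end, and no site at any of 3 TSSs. Nr5a2 (LRH-1) had 10 sites and 5.59% covered, with its first site 7143 bp after the most upstream TSS and sites at 3 of 6 TSSs. Nr6a1, a germ cell receptor that neighbours Nr5a1 at a distance of 8827 bp, had 23 sites and a site of 388 bp over its TSS. None of the sites lay between Nr5a1 and Nr6a1. Nr0b2 (SHP), the bile acid-induced repressor, had no site over its 3161 bp, although 10 lay within 50 kb, 6 of them on other genes.

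Members often had sites at some TSSs and not at others. Of the 42, 13 had a site within 1 kb of every annotated TSS, 23 at some only and 6 at none. Over all 247 TSSs, 70.9% had a site, against 60.4% of all TSSs of protein-coding genes. The 13 with every TSS served comprised 6 broadly used, 5 intermediate and 2 tissue-restricted receptors, the latter being Nr1i2 and Nr1i3. Nr1i2 has only 1 annotated TSS, and the 7 of Nr1i3 lie within 379 bp. Among those not yet described, sites lay at 5 of 6 TSSs in Thrb and Ppara, 6 of 9 in Ppard, 5 of 7 in Pparg and Nr3c2, 6 of 8 in Nr1h3, 1 of 3 in Nr1h4, 1 of 2 in Hnf4g and Esr2, 7 of 10 in Rxrb and Nr6a1, and 2 of 3 in Nr2c1 and Nr4a1. In Nr2f1 and Nr2f6 they lay at 5 of 6, in Esr1 at 7 of 9, in Esrrb at 3 of 5 and in Nr4a3 at 2 of 4. TSSs that lie close together share sites, so these are not independent counts.

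Sites over the bodies of the 42 genes numbered 467, or 0.292% of the sites on chromosomes, where the members make up 0.193% of the protein-coding genes. The median member had 5 sites over its body against 2 for the protein-coding genes, but its length was 52698 bp against 17414 bp. As a share of the gene, the medians were nearly equal, at 6.74% and 6.61%. Within the members, the medians were 29.8% for broadly used, 9.98% for intermediate and 1.84% for tissue-restricted receptors. The order of the outer classes held within each range of length. Under 20 kb the broadly used receptors had a median of 35.3% (n = 4) and the tissue-restricted ones 0% (n = 3). From 20 to 100 kb the medians were 28.7% (n = 7) and 1.84% (n = 7), and from 100 kb up they were 10.2% (n = 2) and 4.07% (n = 5). The corresponding medians over the protein-coding genes were 7.09%, 6.66% and 5.55%. A site of 5 kb or wider lay over 6 members (14.3%), against 5.18% of the protein-coding genes. Those 6 were Rara, Rarg, Thra, Nr2f2, Rxra and Nr2f6. The wide site of Rara was known when the list was chosen, so Rara is no independent support for this difference. The members are also longer genes, and no share at equal length was computed. Counted per site, 1.93% of the sites over member bodies were 5 kb or wider, against 1.35% over all protein-coding gene bodies. No site lay over the body of 5 members (11.9%), against 26.6%.

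**Figure D4:**
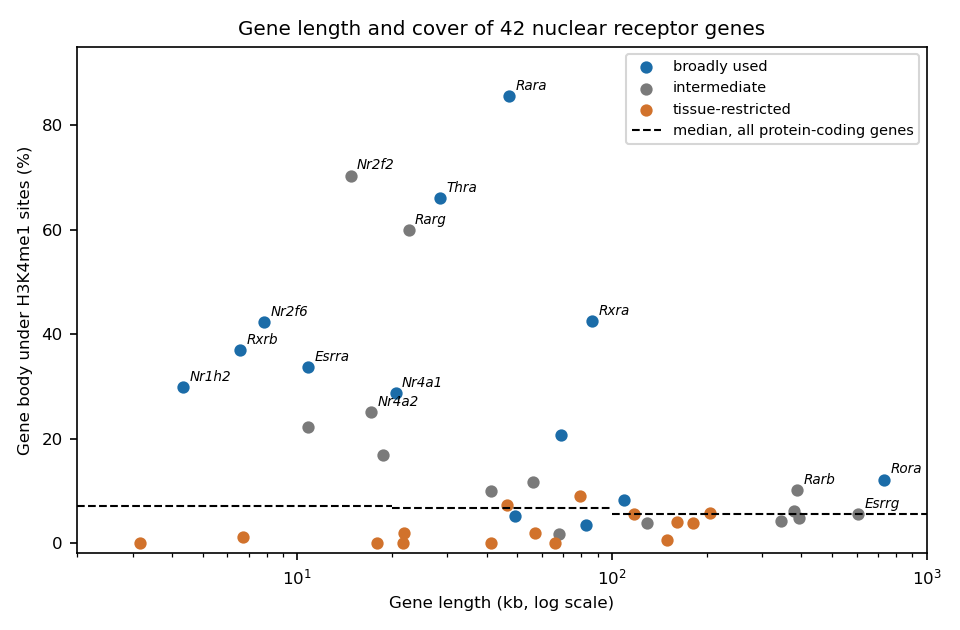
Percentage of the gene body under H3K4me1 sites against gene length in kb on a log scale for the 42 receptor genes, 1 point a gene, coloured by class. Dashed lines give the median over all protein-coding genes in 3 ranges of length. Rara, Nr2f2, Thra and Rarg lie above 59%, while all tissue-restricted receptors lie below 10%.

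In the 50 kb flanks the members resembled other genes, with a median of 8.5 sites against 8 over the protein-coding genes. The median was 11 for broadly used receptors and 8 for each of the other classes. Of the 393 pairs of a member and a flank site, 177 (45.0%) lay on another protein-coding gene. Flank sites were most numerous at Thra (24), Rxra (22) and Nr1i3 (21). None of the 22 flank sites of Rxra lay on another protein-coding gene, nor did any of the 18 of Pparg or the 12 of Nr2f2, whereas 14 of the 24 at Thra and 13 of the 21 at Nr1i3 did.

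Direct repeats with 1 to 5 bases between the hexamers were found in 14 of the 474 sites at member genes and promoters (2.95%), against 2.69% of all sites. The shares were thus alike. With AGGTCA as the only hexamer, 1 of the 474 had a repeat (0.211%), against 0.457% of all sites. That one lay at chr12:86365593-86365608, under a site 4484 bp into Esrrb, with 4 bases between the hexamers. Wide sites hold more letters to match. Of the member sites of 5 kb or wider, 4 of 9 had a repeat, and of all sites of that width 21.7% did. The matches within the wide sites lay at Rara, Rarg, Thra and Nr2f2. In RefSeq promoters of 300 bases, which matched 38 of the 42 members through 59 promoters, the DR5 of Rarb was the only match of any spacing. Over all 32851 RefSeq promoters, 0.0974% held a DR5.

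The genes of proteins that receptors recruit had sites about as often as other genes with an island. Of 28 coregulator genes, 27 had a promoter site (96.4%) and 28 a site at some TSS, but 27 had an island, and of all protein-coding genes with an island 92.9% had a promoter site. Nsd1, a methyltransferase first found through its binding to receptors, was the one without a site at its most upstream TSS. Gps2, a subunit of a corepressor complex, lay wholly under 1 site of 5014 bp. Ncoa2, a p160 coactivator, had 27 sites.

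Genes that receptors regulate, or that make and break down their ligands, had promoter sites about as often as all genes. Of 50 such genes, 33 (66.0%) had one, against 64.4% of the protein-coding genes, and the median share of the gene covered was 15.5% against 6.61%. All 9 glucocorticoid genes had one, 8 of them with an island, with a median of 13 sites, among them Fkbp5 with 24 sites and Sgk1 with 22. Of 12 retinoid genes 8 (66.7%) had one, near the share of all genes, and Crabp2, for a retinoic acid binding protein, had 76.5% of its body covered and carried a site of 8931 bp. Cyp26c1, which breaks down retinoic acid, had none at any TSS but had 2 sites over the gene.

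A promoter site was found in 5 of 8 sterol genes, 6 of 8 fatty acid genes, 2 of 5 thyroid genes, 2 of 3 vitamin D genes and 1 of 5 bile acid and xenobiotic genes. These lists are too short to be set apart from the 64.4% of all genes or from each other. Among the genes with no site over them were Abcg1, a sterol transporter, Dio1, a thyroid hormone deiodinase, Cyp24a1, which breaks down vitamin D, and Cyp3a11, a drug-metabolising enzyme. In contrast, Angptl4, a lipase inhibitor, carried a site of 7521 bp and Srebf1, a regulator of lipid synthesis, one of 5885 bp.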

How the data were processed

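Per the study's methods, the authors trimmed the ChIP-seq reads, used BWA for alignment to mm10 and SAMtools for sorting and filtering, and called broad H3K4me1 peaks with MACS; they merged replicates with Picard and adapted parts of the nf-core workflow. The step that joined the peaks of all conditions into 1 list is not given in the sources used here. The deposited table gives chromosome, start and end only. Starts count from 0 and were converted to 1-based positions. Genes and TSSs were taken from GENCODE M21 on mm10 and sequence from RefSeq GRCm38.p6, both on the build of the table. RefSeq chromosome names were converted to those of the table. The study's methods name a later GENCODE release. CpG islands were called from that sequence (longer than 200 bp, GC of at least 50%, observed over expected CpG above 0.6), which gave 16278. A site counted at a promoter where at least 1 bp lay within 1 kb of the most upstream TSS, and sites over 5 kb were counted as wide. Scripts ran in Python with numpy and were checked on constructed intervals and sequences.

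The members, classes and gene lists were chosen with earlier results of these data known. All 42 members may be named, with full values for those with the 10 widest sites, the 10 largest covered shares, the 10 most sites, or sites at no TSS or only some TSSs. Outside the members, named genes were those that share sites with a member and up to 4 per list with the most or fewest sites, and the markers named as a check of cell type and Nsd1 and Ostm1 were picked after their values were seen. Some genes of the lists are counted but not reported here by name. Depth is unknown, since the table holds no counts.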

Additional observations from a re-analysis of the deposited data

How the results depend on the processing

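Each of 11 results was recomputed under its alternatives, 40 in all. The number of receptors with a promoter site ranged from 31 to 36 and that with the TSS under a site from 22 to 34. Broadly used receptors exceeded tissue-restricted ones in every setting, by 39.0 percentage points as reported, 19.9 with intermediate receptors counted as tissue-restricted and 60 at the APPRIS principal TSS. All of these settings used the same pooled sites, and class lists drawn up with earlier results of the data known. The median number of sites over the gene went from 5 to 3 with sites of at least 500 bp only, and to 3 with sites within 1 kb merged. The median number in the flanks went from 8.5 to 5 with sites of at least 500 bp, to 3.5 with flanks of 20 kb and to 22 with flanks of 100 kb. With flanks of 20 kb, 1 member had no site over the gene or its flanks. The share of member sites with a direct repeat went from 2.95% to 0.211% with AGGTCA alone. The changes in numbers of sites and in repeats follow from fewer sites, other window lengths or fewer letters allowed. The other alternatives stayed within 1.5 times the value reported. Rara kept its width of 27288 bp after merging.

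No paired analysis was possible because only positions were given, with nothing measured in single libraries. A site says that a peak is in the pooled list, not in which library or how strongly, and whether wide sites join peaks of several libraries was not tested. The classes rest on textbook knowledge and were set with earlier results of these data known.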
